A study of Caenorhabditis elegans with 2 samples.

Results

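The 10 genes described here encode core factors of messenger RNA cleavage and of transcription termination in Caenorhabditis elegans. They are cpsf-1, cpsf-2, cpsf-3, cpsf-4, symk-1, cpf-1, cpf-2, suf-1, pcf-11 and xrn-2. They were taken by name, out of 19973 nuclear protein-coding genes of the Ensembl annotation of WBcel235, the assembly that ce11 names, and all 10 names matched a gene. The question was where RNA polymerase II, through its large subunit AMA-1, was enriched on the genes of this machinery. For each gene, every peak summit in the annotated body or within 1000 bp of either end was read. A summit is the base of highest enrichment in a peak.

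The machinery works on the transcript that the polymerase is still making. The cleavage and polyadenylation specificity factor, CPSF, reads the AAUAAA signal near the end of the message and carries the endonuclease. The cleavage stimulation factor, CstF, binds further downstream, symplekin holds the parts together, and PCF11 contacts the tail of the polymerase. After the cut, the exonuclease XRN2 degrades the RNA still attached to the polymerase, and the polymerase is released. RNA polymerase II is known to dwell downstream of cleavage sites, and many worm genes lie in operons, in which several genes follow each other on 1 strand and are copied into 1 precursor.

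AMA-1 was mapped by chromatin immunoprecipitation and sequencing of whole young adult worms of both sexes, in 2 biological replicates of 1 group. The worms were of strain YL503, with the unc-119(ed3) allele on chromosome III and the insertion vrIs110. The insertion carries unc-119(+) and a copy of AMA-1 tagged with GFP and FLAG, placed under the promoter of pie-1, a gene of the germline, and followed by the 3′ untranslated region of AMA-1. Both replicates carry all of these elements, and the antibody is labelled ama-1. Its target, the native protein sequence or the GFP or FLAG part of the insertion, is not given in the labels. With GFP or FLAG as the target, the peaks would show only the tagged copy, which is under a germline promoter. Which of these holds was not tested. Chromatin was sheared by sonication, and a possible control library named in the labels was not analysed here. Whether separate cultures were used is not stated beyond the word biological, and no comparison between conditions can be made. Since whole animals were used, fewer cells of a type and less AMA-1 per cell cannot be told apart.

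The relaxed peak lists, which hold peaks and background, had 30000 summits for the pooled replicates, 30000 for replicate 1 and 27106 for replicate 2. A thresholded list had 732 peaks, and all 732 were also pooled peaks, with a lowest signal of 27.5. The signal is the authors' own value for a peak, and it was compared only within a list, because its scale differed between lists. Its median over nuclear peaks was 6.89 for the pooled replicates, with 4.75 for replicate 1 and 3.61 for replicate 2. Read counts are not part of the files analysed, and the sequencing depth behind each value is therefore unknown. Of the marker genes, 4 of 5 germline genes had a thresholded summit, with pooled signals from 9.91 to 88.3 over the list. By contrast, 0 of 3 body muscle genes had any pooled summit, 2 of 3 intestine genes reached 5.02 and 7.19, 3 of 3 neuron genes had pooled summits from 8.39 to 25 but no thresholded summit, and 1 of 2 hypodermis genes reached 9.52. How much of the signal at the cleavage genes came from each tissue was not tested.

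Strong AMA-1 peaks were found at 2 of the 10 genes, xrn-2 and suf-1, where 5.2% of all nuclear protein-coding genes had a thresholded summit in the same window. The other 8 genes lay below that list. In the pooled list 9 of the 10 genes had a summit, against 56.4% of all genes, and the gene without any was cpsf-2. Of the 10, 6 (cpsf-1, cpsf-3, cpf-2, suf-1, pcf-11 and xrn-2) kept a summit when the −log10 of the authors' q-value had to be at least 2, against 31.3% of all genes. All 10 had a summit in replicate 1, against 61.8% of all genes, and all 10 in replicate 2, against 65.3%. A summit in both replicate lists, at any place in the window, was likewise found for 10 of 10 genes, against 49.5%. When a pooled summit with a summit of each replicate within 150 bp was asked for, the count was 8. For this rule the share over all genes was not counted.

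Genes with more bases have more room for summits, so lengths are given beside these counts. The median length of the 10 genes was 4299.5 bp, against 2027 bp over all genes, and 6 of them were among the 4991 longest genes, of 3637 bp or more. Of those longest genes 73.9% had a pooled summit and 6.55% a thresholded summit, while among the 5000 shortest the shares were 46.2% and 4.62%. Per kb of window, the 10 genes had a median of 0.683 pooled summits, against 0.225 over all genes, of which many had none. The part of length in the counts of the 10 genes was not tested.

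The highest pooled signal per gene ranged from 8.88 at cpsf-4 to 39.6 at xrn-2. Its median over the 9 genes with a summit was 15.3, where the median over all 11270 genes with a pooled summit was 11.2 and the quartiles were 7.25 and 17.5. In the replicate 1 list the 10 genes had a median of 11.2, against 7.71 over all genes with a summit there. In the replicate 2 list the values were 5.88 and 4.98. The medians were therefore above those of all genes in each list, and the individual genes lay on both sides of them. Each value is the highest of the summits in a window. In the pooled list the 10 genes had a median of 5.5 summits, against 1 over all genes with and without a summit. The part of gene length and summit number in these medians was not tested.

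**Figure D1:**
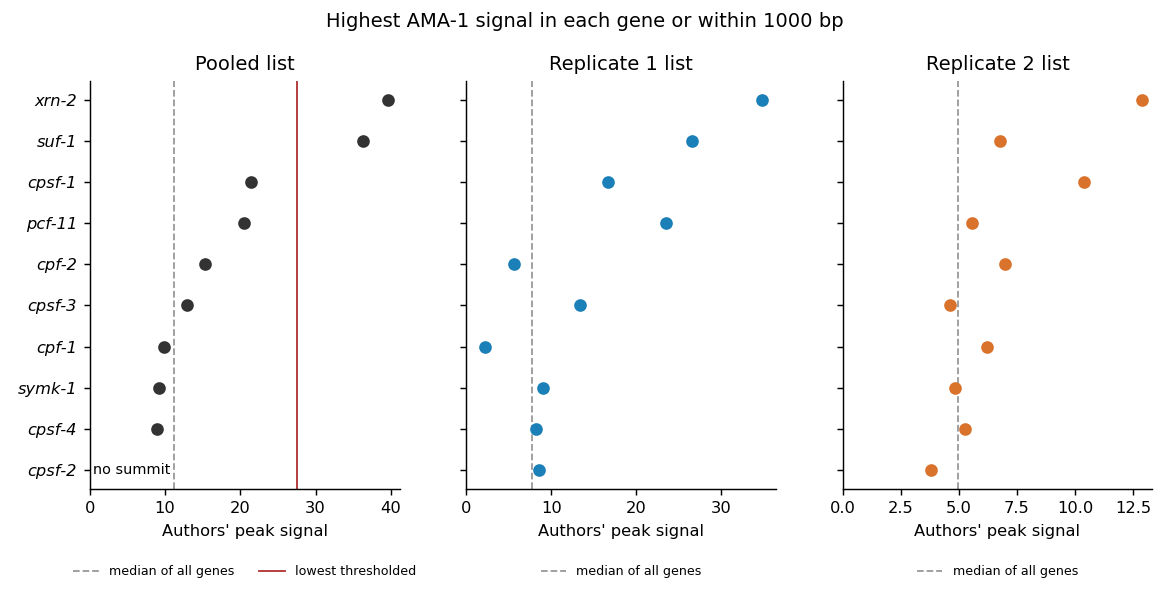
The highest peak signal (horizontal axis, authors' units, linear) in the body or within 1000 bp of each gene is shown as 1 point per gene for the pooled, replicate 1 and replicate 2 lists, each on its own scale. Dashed lines mark the median over all genes with a summit in that list and the red line marks 27.5, the lowest thresholded signal; xrn-2 and suf-1 lie past it, and xrn-2 is the highest point in each panel.

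The order of the genes was only partly shared by the replicates. The exonuclease gene xrn-2 stood first in all 3 lists. The CstF gene suf-1 came next in the pooled list and in replicate 1, but in replicate 2 its highest signal of 6.77 was below those of cpsf-1 (10.4) and cpf-2 (6.99). The CstF genes cpf-1 and cpf-2 were the lowest in replicate 1, at 2.2 and 5.62, while in replicate 2 both were above the median of all genes, at 6.19 and 6.99. With a single value per list, on scales that differ, no spread can be given for neighbours in this order. Among the 732 highest summits of replicate 1 were some of xrn-2, suf-1 and pcf-11, 3 genes in all, and among those of replicate 2 only those of xrn-2, 1 gene. The count of strongly marked genes thus runs from 1 to 3 between the replicates. The share of all genes with a summit among these 732 was not counted for either replicate.

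CPSF is described first. The gene of its large scaffold subunit, cpsf-1 (WBGene00022301, CPSF160), lies on the minus strand at chrIV:2009038-2032996 and is the longest of the 10, with 23959 bp and 12 pooled summits. The highest, at position 2009706, was in an intron 668 bp before the gene end, and its pooled signal was 21.5, with 9.33 in replicate 1 and 10.4 in replicate 2. It ranked at 1341 among pooled peaks, 4894 in replicate 1 and 1136 in replicate 2, so it was found in both. The next, at position 2009033, was 5 bp past the annotated end of cpsf-1 and 6 bp past the end of xpc-1, which runs towards it on the other strand. There the pooled signal was 20.9, replicate 1 had 16.7 at rank 1219 and replicate 2 only 2.06 at rank 26491. The end summit was thus high in replicate 1 and near the bottom of the list in replicate 2, and because both genes end there, it cannot be assigned to either. A summit of 15.6 at position 2013378, in a coding exon 4340 bp before the end, had 2.27 and 3.86 in the replicates. It lay 339 bp past the start of the shorter annotated transcript Y76B12C.7c.1. The highest summit lay 973 bp past the start of another shorter transcript, Y76B12C.7d.1. The summit by the gene start, 133 bp into the gene, reached only 4.0 in the pooled list, with 5.37 in replicate 1 and no match in replicate 2, so on cpsf-1 the 2 highest pooled summits lay within 1000 bp of the end, 1 on each side of it.

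The CPSF100 gene cpsf-2 (WBGene00017313), which encodes a catalytically inactive relative of the endonuclease, lies on the plus strand at chrV:7179172-7182858. No pooled summit was listed for it. Replicate 1 had a single summit, 242 bp past the gene end, with a signal of 8.56 and rank 5853. Replicate 2 had 3 summits, all on other places, the highest with 3.79 at 181 bp before the start and 196 bp past the end of lgc-39, the gene before it on the same strand. The replicates therefore shared no position on cpsf-2.

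The endonuclease gene cpsf-3 (WBGene00013460, CPSF73) lies on the minus strand at chrIV:13273846-13282878. Its highest pooled summit, of 12.9, was in an intron 96 bp past the start and 202 bp past the end of Y67H2A.10, which ends 105 bp upstream on the same strand. Replicate 1 had 13.3 there at rank 2133, and replicate 2 had no summit within 150 bp. A summit of 12.5, 671 bp past the end and 659 bp before the start of unc-26, had no match in either replicate. The remaining 6 pooled summits of cpsf-3 were between 3.64 and 7.21, and the start summit was the highest in the pooled list and in replicate 1. In replicate 2 the highest value was 4.64, inside an intron.

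The gene of the zinc finger subunit that binds the AAUAAA signal, cpsf-4 (WBGene00044329, CPSF30), is the shortest, 1124 bp on the minus strand at chrIV:12092322-12093445. Its highest pooled summit, of 8.88, lay 100 bp past the end and 9 bp before the start of mig-32, with 5.58 in replicate 1 and 2.73 in replicate 2. The replicates' own highest summits were elsewhere, with 8.18 at 897 bp past the end in replicate 1 and 5.27 at 77 bp before the end in replicate 2. No pooled summit lay within 500 bp of the start of cpsf-4. The intergenic summit lies in the windows of both cpsf-4 and mig-32 and cannot be assigned to either.

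The symplekin gene symk-1 (WBGene00017797), whose product is the scaffold that joins CPSF and CstF, lies on the plus strand at chrV:8570311-8581745. Its pooled summits were between 5.23 and 9.27. The highest was in a coding exon 2905 bp past the start, with 9.03 in replicate 1 and no match in replicate 2. A summit of 9.05 in an intron 3977 bp past the start was found in both, with 5.27 and 3.64. None of the pooled summits lay within 500 bp of the gene end, although replicate 1 had 5.15 at 251 bp before it, where the gene C10B5.1 on the same strand overlaps symk-1. Both of the highest summits thus lay in the front part of a long gene, and they were below the median of all genes.

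Of the CstF genes, cpf-1 (WBGene00000773, CstF50) lies on the minus strand at chrII:8600449-8602440. Its highest pooled summit, of 9.88, was 139 bp before the start, in the 344 bp that separate it from the ribosomal protein gene rpl-26 on the other strand. Neither replicate had a summit within 150 bp of it, and the nearest of replicate 2, with 6.19, lay 290 bp before the cpf-1 start and 55 bp before the rpl-26 start. Replicate 1 had a single summit for cpf-1, of 2.2 at rank 28895 and 687 bp past the end. The values at cpf-1 were therefore low in replicate 1 and, in the pooled list, below the median of all genes with a summit.

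The RNA-binding CstF subunit is encoded by cpf-2 (WBGene00000774, CstF64), on the minus strand at chrIII:13266932-13268883. Its highest pooled summit, of 15.3, lay in the 3′ untranslated region 12 bp before the end, with 5.62 in replicate 1 and no match in replicate 2. The oppositely oriented F56A8.5 ends 12 bp before this summit, so the signal cannot be assigned to 1 of the 2 gene ends. A summit of 11, 64 bp before the start, had 6.99 at rank 3323 in replicate 2 and no match in replicate 1. The highest summit thus lay by the end in replicate 1 and before the start in replicate 2, and the pooled list held both. Another pooled summit, of 4.27 at 776 bp past the end and inside F56A8.5, was matched in both replicates, with 4.99 and 3.20.

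The CstF77 gene suf-1 (WBGene00006307), known as suppressor of forked in Drosophila melanogaster, lies on the plus strand at chrII:8603846-8606744. Its thresholded summit, at position 8604172, had a pooled signal of 36.3 at rank 362, with 22.5 at rank 531 in replicate 1 and 6.11 at rank 4692 in replicate 2. It lay in a coding exon 326 bp past the start and 591 bp past the end of rpl-26, the ribosomal protein gene that precedes suf-1 on the same strand at a distance of 264 bp. A summit at position 8603679 lay between them, 98 bp past the end of rpl-26 and 167 bp before the start of suf-1. There the pooled signal was 24.7 at rank 965, below the 27.5 of the lowest thresholded peak, with 26.5 at rank 331 in replicate 1 and 2.87 at rank 18730 in replicate 2. Both were among the 732 highest summits of replicate 1 and neither was among those of replicate 2, whose highest value for suf-1 was 6.77 at 163 bp past the end, inside F28C6.8. Further into suf-1 the pooled summits were lower, at 12.4, 4.28 and 6.23.

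The 264 bases between the 2 annotated genes, chrII:8603582-8603845 on the plus strand of ce11, are shown because the second highest summit of suf-1, of 24.7, lies in them. The sequence was read from the NCBI RefSeq copy of WBcel235, and capitals mark the 11 bases centred on the summit, at base 98 of the stretch.
rpl-26 to suf-1: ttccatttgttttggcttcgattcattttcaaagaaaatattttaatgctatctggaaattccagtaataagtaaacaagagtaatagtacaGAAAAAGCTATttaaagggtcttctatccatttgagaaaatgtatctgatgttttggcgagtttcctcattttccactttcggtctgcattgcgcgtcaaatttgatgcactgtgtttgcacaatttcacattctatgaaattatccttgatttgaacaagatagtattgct
Of these bases 67.4% are A or T. The letters AATAAA and TTTCAG were not found on the plus strand of the stretch. It begins past the annotated end of rpl-26, so an AATAAA before that end would lie outside it.

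The termination factor PCF11 is encoded by pcf-11 (WBGene00020092), on the plus strand at chrIII:5024914-5029825, with 4 annotated transcripts. Its highest pooled summit, of 20.5 at position 5027130, was found in both replicates, with 20.7 at rank 688 and 5.56 at rank 5869. It lay 2216 bp past the start and 100 bp past the end of the shorter transcript R144.2b.1, inside an intron of the longer ones. That transcript is annotated without a 3′ untranslated region, so its real end may lie elsewhere. The transcript R144.2b.2 is annotated with 2361 bp of such a region and ends at position 5029824, by the gene end. A summit of 18.6 lay 759 bp before the start and 91 bp past the end of R144.13, with 14.9 in replicate 1 and no replicate 2 summit within 150 bp. Another, 414 bp past the first start and 16 bp before the start of a shorter transcript, had 13.7 in the pooled list and 23.5 at rank 475 in replicate 1, without a match in replicate 2. On pcf-11 the strongest signals therefore lay inside the gene and upstream of it, those of replicate 2 were all at or below 5.56, and the summit at the annotated end, 75 bp before it, had only 4.7.

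The exonuclease gene xrn-2 (WBGene00006964) lies on the plus strand at chrII:14155768-14166030 and had the highest summit of the 10 genes. This summit, at position 14155726, had a pooled signal of 39.6 at rank 282, with 34.8 at rank 147 in replicate 1 and 12.9 at rank 606 in replicate 2. It was high in both replicates, unlike those of suf-1. It lay 42 bp before the start of xrn-2 and 157 bp past the end of rpl-43, a ribosomal protein gene that ends 198 bp upstream on the same strand, so it belongs to both windows. The replicates placed it 2 bp and 70 bp before the start. At the other end of the gene, a summit of 14.1 lay 15 bp past the annotated end, with 9.68 at rank 1388 in replicate 2 and no replicate 1 summit within 150 bp. Between them, pooled summits of 10.4 and 6.32 lay 1071 and 1852 bp past the start. From there to the gene end no pooled summit was listed, and replicate 1 had 3 small ones of 3.13 to 5.05 on that stretch.

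The 198 bases between rpl-43 and xrn-2, chrII:14155570-14155767 on the plus strand, hold the thresholded summit and are shown for that reason. Capitals mark the 11 bases centred on the summit, at base 157, and the source is the same RefSeq copy.
rpl-43 to xrn-2: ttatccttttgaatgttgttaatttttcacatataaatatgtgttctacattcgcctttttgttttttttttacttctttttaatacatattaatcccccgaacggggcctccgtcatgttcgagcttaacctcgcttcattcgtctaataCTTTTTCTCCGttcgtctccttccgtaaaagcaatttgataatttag
Of these bases 66.2% are A or T, a share close to the 67.4% of the stretch before suf-1. AATAAA and TTTCAG were not found on the plus strand here either. This stretch too begins past the annotated end of the ribosomal protein gene, so an AATAAA before that end would lie outside it.

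**Figure D2:**
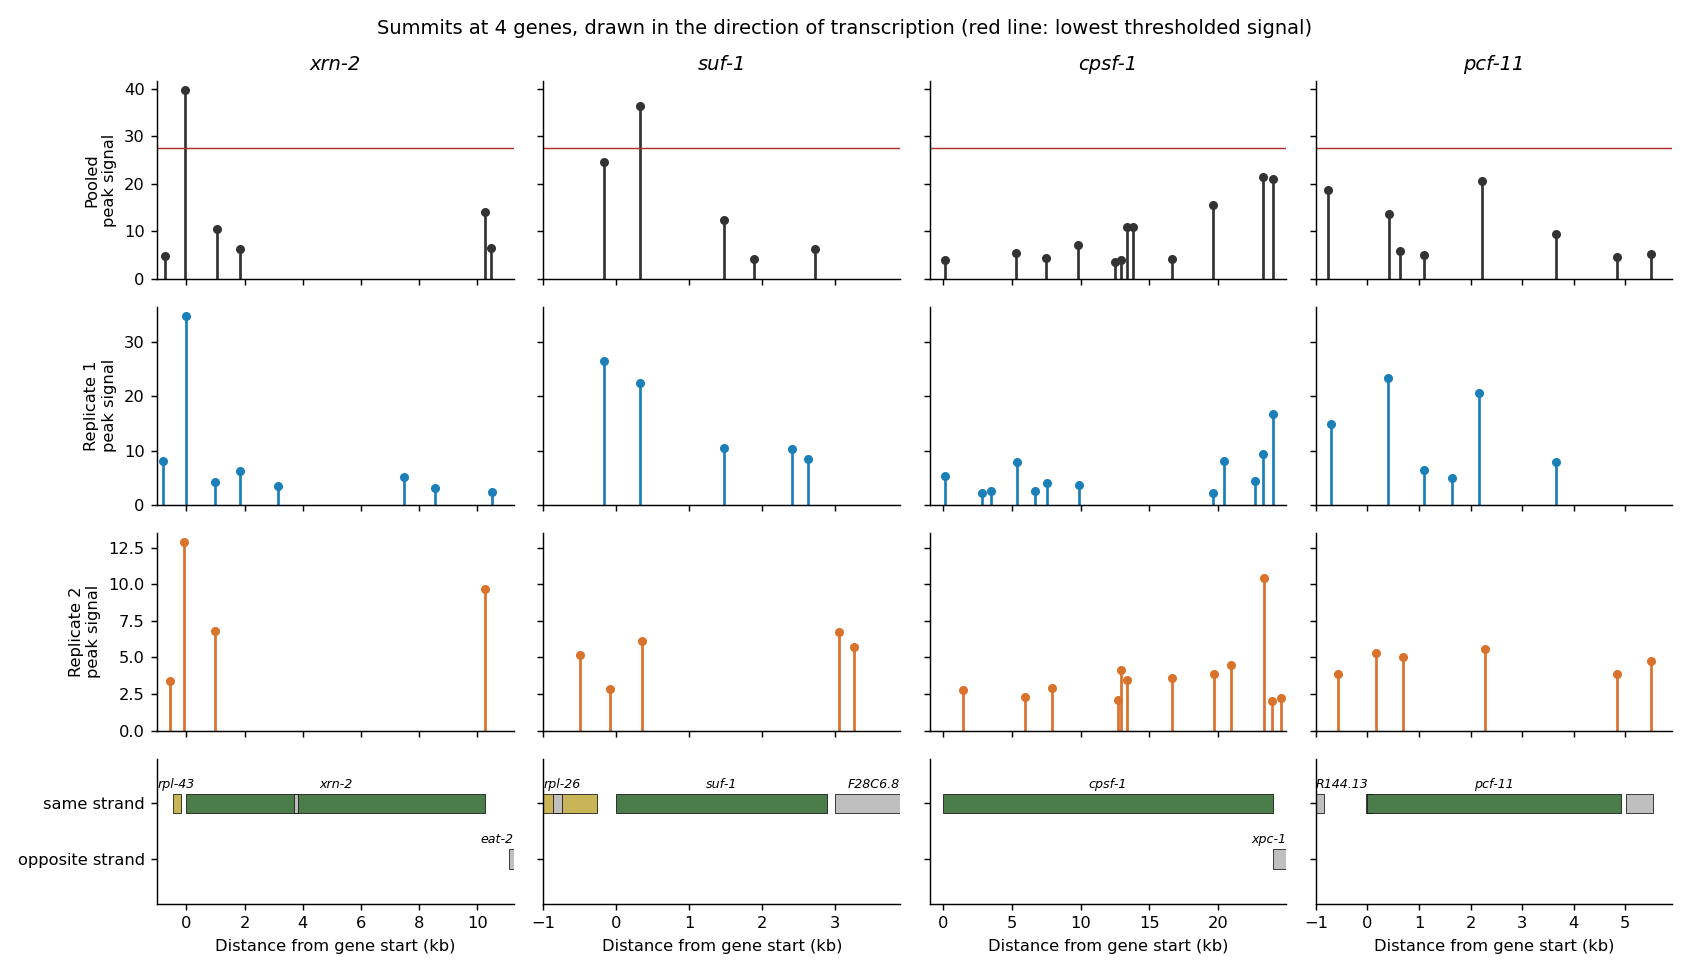
Pooled, replicate 1 and replicate 2 summits (vertical axes, authors' peak signal, linear, a scale per list) are drawn as stems against the distance from the gene start in kb for xrn-2, suf-1, cpsf-1 and pcf-11, with annotated genes below (green, the gene itself; yellow, ribosomal protein genes; grey, others). The pooled summits over the red line at 27.5 are those at the start of xrn-2 (39.6) and 326 bp into suf-1 (36.3), whereas on cpsf-1 the highest, of 21.5, is 668 bp before the end.

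The 2 genes with a thresholded summit were also the 2 whose start follows a ribosomal protein gene on the same strand within 500 bp. This neighbourhood was looked at after the values were seen. A protein-coding gene of any kind in that position preceded 4 of the 10 genes (cpsf-2, cpsf-3, suf-1 and xrn-2), against 18.1% of all genes. A ribosomal protein gene preceded 2 of 10, against 0.165% of all genes, which is 33 genes. Of these 33 genes, 24 had a thresholded summit in their window, a share of 72.7%, and suf-1 and xrn-2 were 2 of 2. Over the wider window, 151 genes had any of the 81 ribosomal protein genes in the body or within 1000 bp, and 77 of these (51.0%) had a thresholded summit. In that window cpf-1 also had rpl-26, and its pooled signal was 9.88. Whether the signal at suf-1 and xrn-2 comes from polymerase on the ribosomal protein gene, on the gene itself or on both cannot be told apart from summits.

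Signal at the 2 ends of the genes was compared next, since the encoded proteins act at gene ends. The highest pooled summit was nearer the gene end than the start in 3 of 9 genes, cpsf-1, cpsf-4 and cpf-2, against 55.6% of all genes with a pooled summit. The count was 5 of 10 in replicate 1 alone and 4 of 10 in replicate 2 alone. For these lists the share over all genes was not counted. A pooled summit of any height lay within 500 bp of the end in 8 of the 10 genes, against 36.4% of all genes. Within 500 bp of the start the count was also 8 of 10, against 32%. The exceptions were cpsf-2 and symk-1 at the end, and cpsf-2 and cpsf-4 at the start.

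The places of all summits were counted too. Of the 53 pooled summits of the 10 genes, 10 lay within 500 bp of an end, 9 within 500 bp of a start and 34 (64.2%) farther away from both. Over all genes, 54.6% of the 38344 pairs of a gene and a pooled summit in its window lay farther away from both, and over the 4991 longest genes 69.6% of 18083 pairs, so the share of the 10 genes lay between these. By annotation 21 were in introns, 11 in coding exons, 3 in 3′ untranslated regions, 1 in a 5′ untranslated region and 17 outside the gene, which puts 67.9% inside, against 55.9% of pairs over all genes and 71.8% over the longest. Of the 18 summits with a −log10 q-value of at least 2, 3 (16.7%) lay within 500 bp of an end, 6 (33.3%) of a start and 9 of neither. Over all genes, 35.1% of such pairs lay by an end and 23.4% by a start, and over the longest genes 28.8% and 17.3%. With 18 summits from 6 genes these shares are a description only.

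**Figure D3:**
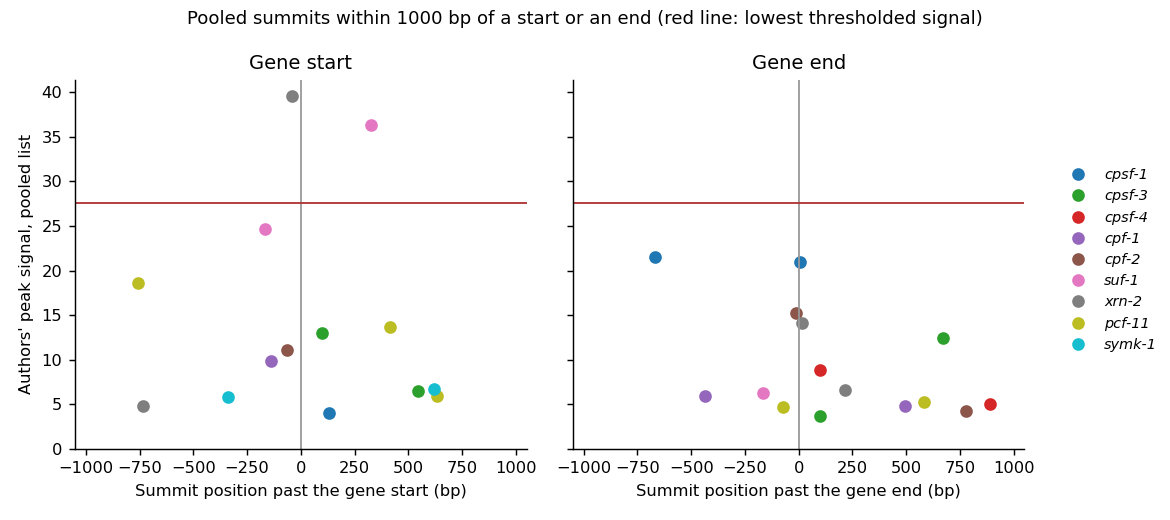
Pooled summits within 1000 bp of a gene start (left) or a gene end (right) are plotted by position in bp, positive values being downstream, and by the authors' peak signal (linear), with 1 colour per gene; cpsf-2 has none. Around starts xrn-2 (39.6) and suf-1 (36.3) lie over the red line at 27.5, and around ends the highest are those of cpsf-1, 21.5 and 20.9.

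The replicates were then compared summit by summit. Of the 53 pooled summits, 34 (64.2%) had a replicate 1 summit within 150 bp, 25 (47.2%) a replicate 2 summit and 14 (26.4%) both, while 8 had neither. Over all 29972 nuclear pooled summits, the shares were 57.6%, 40.9% and 19.4%, and 20.8% had neither. Among the summits with a −log10 q-value of at least 2, 8 of 18 (44.4%) of these genes and 48.4% of all 7505 were matched in both. Pooled summits that overlap replicate summits share reads with them, so these shares describe the lists and are no independent replication.

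The message ends of the genes were read for the cleavage signal that CPSF recognises. The letters AATAAA, searched on the sense strand only, were found in the last 30 bases of 5 of the 10 genes, where 45.5% of all 19973 genes have them in the same window. The 5 ends are shown because they carry the signal, in capitals, that the encoded factors bind, and they were read from the RefSeq copy of WBcel235 in the direction of transcription. They lie at chrV:7182829-7182858 (plus), chrIV:12092322-12092351 (minus), chrII:8600449-8600478 (minus), chrII:8606715-8606744 (plus) and chrIII:5029796-5029825 (plus), in the order printed.
cpsf-2: ttctcAATAAAaaaattttttttccaagaa
cpsf-4: gagactgttggAATAAAaatttaaccttcc
cpf-1: ttaatattattggaAATAAAttatttaaat
suf-1: tttacactgAATAAAtctaatctggttctc
pcf-11: tggtcgAATAAAtctattaaaatgggaaat
Between the signal and the annotated end lay 19 bases in cpsf-2, 13 in cpsf-4, 10 in cpf-1, 15 in suf-1 and 18 in pcf-11. Of these 5 genes only suf-1 had a thresholded summit, 2572 bp before its end, so the thresholded list held no summit by any of these 5 ends. For the other 5 genes these letters were not in this window. Within 500 bp of the end, their highest pooled summits were 20.9 at cpsf-1, 15.3 at cpf-2, 14.1 at xrn-2 and 3.64 at cpsf-3. At symk-1 there was none. Genes with the letters had 8.88 (cpsf-4), 6.23 (suf-1), 5.95 (cpf-1) and 4.7 (pcf-11) there, and cpsf-2 had none. A relation between the letters and the signal was not tested. TTTCAG, the usual form of the worm splice acceptor, was searched on the sense strand in the 30 bases before the annotated start. It was found directly before the start of cpsf-1 and symk-1, against 15.8% of all genes with it in the window, and in neither xrn-2 nor suf-1.

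Related gene groups were read in the same windows, in which 5.2% of all genes had a thresholded summit and 56.4% a pooled summit. Of 11 other cleavage and polyadenylation genes, 4 had a thresholded summit, 10 had a pooled summit, and their median highest pooled signal was 19.7. The 4 were cfim-2, of cleavage factor I, with 53.6, clpf-1, the CLP1 homologue, with 40.8, fipp-1, the FIP1 homologue, with 36.4, and pabp-2, the nuclear poly(A)-binding protein gene, with 34.5. The summit of fipp-1 lay 22 bp before its end and 96 bp inside the end of neg-1 on the other strand, that of clpf-1 lay 52 bp past its end and 58 bp inside the end of npp-9 on the other strand, and that of cfim-2 lay within the snoRNA gene D1046.6. That of pabp-2 lay 195 bp past its end and 96 bp past the start of C17E4.11. The strongest summits of fipp-1 and clpf-1 thus lay by their own ends, and those of suf-1 and xrn-2 by their own starts. The latter also lay past the end of a ribosomal protein gene, so none of these summits can be assigned to a single gene.

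Of 18 genes for enzymes and factors of the polymerase tail and of elongation, 1 had a thresholded summit, against 5.2% of all genes. All 18 had a pooled summit, against 56.4%, and the median was 14.3. The 1 with a thresholded summit was cdc-73, of the PAF1 complex, with 55.7 at 351 bp past its end. That place is also 14 bp past the end of pcn-1. Of 15 Integrator names 11 matched the annotation, and their median was 16.9. Of these 11 genes, 2 had a thresholded summit, against 5.2% of all genes. They were ints-8, with 80.3 at a summit within rpr-1, which encodes the RNA of RNase P, and the endonuclease gene ints-11, a relative of cpsf-3, with 31.9 at 16 bp before its end and 5 bp before that of cdc-48.2. Of 4 genes for partners and relatives of the exonuclease, none had a thresholded summit, and the 3 with a pooled summit, xrn-1, paxt-1 and dom-3, had 8.80, 7.36 and 6.69. The value of the cytoplasmic exonuclease gene xrn-1 lay between the quartiles of all genes.

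**Figure D4:**
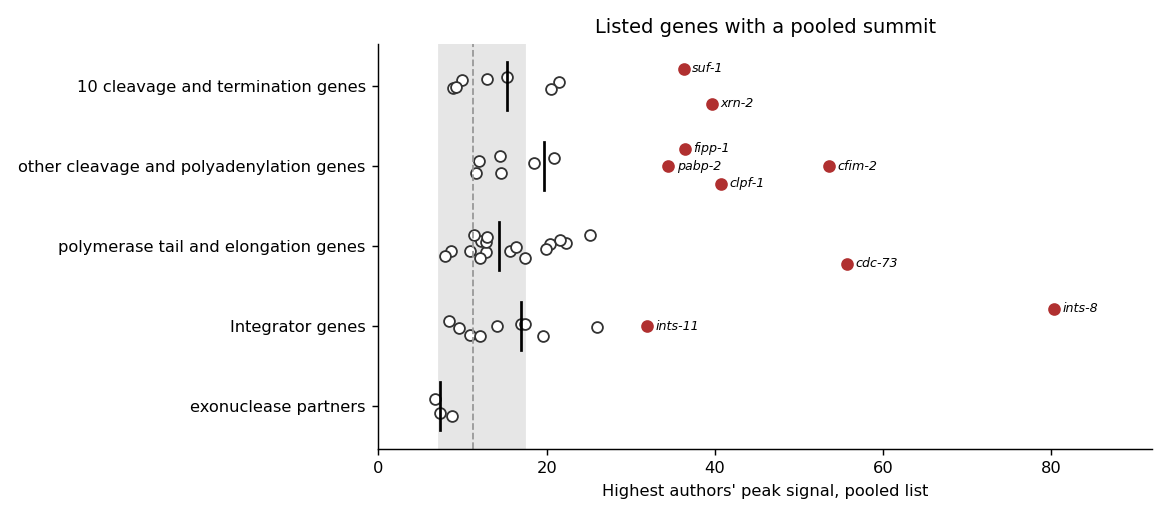
The highest pooled peak signal (horizontal axis, authors' units, linear) is shown as 1 point per gene for the 10 genes and 4 related lists, with filled red points for genes with a thresholded summit, a black bar for the list's median, a dashed line for the median of all genes (11.2) and a grey band between their quartiles (7.25 and 17.5). The 10 genes have a median of 15.3, below the 19.7 of the other cleavage and polyadenylation genes, and points are spread vertically only to separate them.

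The genes whose highest signals were most like those of xrn-2 were found over the 3 lists, by the Euclidean distance between log2 highest signals among 9032 genes with a summit in each. The nearest was rpl-43 itself, at a distance of 0, because it shares the summits. The next were set-17, at 0.0747, with 38.1, 33.6 and 13 in the pooled, replicate 1 and replicate 2 lists, and nimk-1, at 0.0991, with 38.4, 35 and 13.7. The place of the signal differed, since the summit of set-17 lay 17 bp before its end and that of nimk-1 639 bp before its end, against 42 bp before the start in xrn-2.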

How the data were processed

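Peaks of AMA-1 ChIP-seq on ce11 were taken from the 4 deposited lists, for replicate 1, replicate 2, the pooled replicates and the thresholded set. The signal of each peak was the authors' value as deposited, as was the −log10 of its q-value; neither was rescaled. Per the labels, lists on ce10 also exist and were not used. Aligner, peak caller and their settings: not given in the sources used here. Genes came from Ensembl release 115, and positions are 1-based. A summit was counted for every gene whose body or flanks of 1000 bp held it, summits within 150 bp were called matched, and within 500 bp counted as near a start or end. The 10 genes, the other lists, the naming rule and the windows were chosen with earlier results of these data known. The rule named all 10 genes, listed genes with a thresholded summit, or else the 3 highest of a list, neighbours that share a highest summit, and the 3 genes most like xrn-2. Other features named were chosen after their values were seen. No test was made, because there is 1 group. Shares of summit places over all genes, added after seeing the data, count a summit once for each gene whose window holds it. Counting was checked on simulated summits. Python 3.11.15, pandas 2.3.3, numpy 2.4.6 and matplotlib 3.10.9 were used. Alternatives were other windows, NCBI gene bounds, a stricter list, each replicate alone, other matching rules and, added after seeing the data, a −log10 q-value of at least 2 and the nearest transcript end.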

Additional observations from a re-analysis of the deposited data

How the results depend on the processing

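Of 34 alternatives over 5 results, 29 stayed within 1.5 times the reported count or within 1 SD of the replicate medians (3.75). That SD was taken over the medians of the replicate lists, 11.2 and 5.88, whose scales differ. It therefore served only as a cut and measures no spread between replicates. With the gene body only, the number of genes with a thresholded summit was 1, suf-1, because that of xrn-2 lies before its start. With 1 replicate left out, this number was 1 to 3 among the same number of highest summits, the median highest signal was 5.88 to 11.2, on the scales of the replicate lists, and the genes with the highest summit nearer the end were 4 to 5. The cause of these differences was not tested. Windows of 250 and 500 bp and NCBI gene bounds moved no count past 1.5 times. Added after seeing the data, a −log10 q-value of at least 2 left 6 genes with a pooled summit, and the nearest transcript end gave 4 genes nearer the end. No paired analysis was possible because there is 1 group. Depth is unknown, so low signals cannot be told from a lack of reads, and summits between close genes cannot be assigned.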
